A study of Homo sapiens with 9 samples.

Results

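Interferon-stimulated genes are the genes that a cell switches on when interferon, a cytokine released on viral infection, binds its receptor. The 48 genes described here were taken by gene symbol from a list of this family. That list was chosen with earlier results of these data known. All 48 were found among the 60671 genes of the deposited expression table. The table holds 9 libraries of messenger RNA from AC16 cells, an established human line that the labels call a cardiomyocyte line and that was made by fusing adult heart cells with fibroblasts. By their treatment labels, 3 libraries came from cells in low glucose, 3 from cells in high glucose, and 3 from cells in high glucose to which chrysin, a flavonoid found in plants and honey, was added. All groups were the same line, and no virus or interferon is named among the treatments. Glucose concentrations, the dose of chrysin, the solvent of the controls and the time of exposure were not given in the labels. Libraries of a group carry numbers from 1 to 3, and nothing in the labels says that they came from separate cultures, so p-values measure only how these libraries vary, and that variation may be technical.

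As background, type I interferons bind the receptor chains IFNAR1 and IFNAR2, which activate the kinases JAK1 and TYK2. These phosphorylate STAT2, which acts with IRF9 in the complex ISGF3. ISGF3 binds the interferon-stimulated response element (ISRE) in the promoters of its target genes. IRF1, an activator, also keeps many of the targets expressed at a low level in uninfected cells. The products sense viral RNA, block its translation or degrade it, tag proteins with the ubiquitin-like modifier ISG15, or trap virus particles at membranes.

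Levels were given as FPKM (sequenced fragments divided by transcript length in kilobases and by library size), a unit that allows for gene length, and whole reads could be recovered from them. The libraries held 18171842 to 23024300 reads. Differences were tested with limma on log2(FPKM + 0.5), for the 16996 genes whose mean reached 0.5 FPKM in some group. "Rose" and "fell" are used for an adjusted p under 0.05 over all of these genes, and every log2 difference and standard error (SE) below is on that scale. Values given in a row of 3 are libraries 1, 2 and 3. Standard errors come from 3 libraries a group and a spread shared over all 9.

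Several facts of the whole experiment bear on the values. TXNIP, a glucose-induced gene, stood at 5.9 ± 0.17 FPKM under low glucose, 79.2 ± 0.91 under high glucose and 16.3 ± 0.86 with chrysin, each as mean ± SD of 3 libraries. High glucose library 1 stood furthest from its group. Its log2 values differed from libraries 2 and 3 with SDs of 0.150 and 0.161 over 11048 genes, against 0.115 to 0.129 in the other pairs. Of 13 cardiomyocyte markers, 11 were under 1 FPKM in every library, and MYL2 and NKX2-5 were at 0 throughout, whereas the cardiac genes GATA4 and NPPB were present. All 8 fibroblast markers were present. Their summed levels were 4890 to 5180 FPKM under low glucose, 6434 to 6789 under high glucose and 3821 to 3962 with chrysin. COL1A1 made up most of that sum, with means of 3707, 5138 and 2899 FPKM in that order. With high glucose, 3 of the 8 rose and 1 fell, where 14.6% and 8.91% of all tested genes did. From high glucose to chrysin 6 of the 8 fell and none rose, where 20.9% and 24.9% of all tested genes did. Of 13 immune markers, 10 were under 1 FPKM everywhere and AIF1, CD3E and CLEC4C were at 0. The immune sum was 5.71 to 6.29 FPKM under low glucose, 7.67 to 8.11 under high glucose and 3.86 to 4.25 with chrysin. Most of it was CD14 (means of 2.22, 3.91 and 1.94 FPKM) and NCAM1 (means of 2.46, 2.34 and 0.898 FPKM). Of 6 endothelial markers, 5 were under 1 FPKM everywhere, and their sum was 1.68 to 2.19, 1.68 to 2.19 and 0.921 to 1.46 FPKM in the same order. The part of these differences in the results below was not tested. In bulk RNA, fewer cells that express a gene and less of its RNA per cell cannot be told apart.

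The interferon-stimulated genes were expressed without added interferon, at widely different levels. In high glucose, 18 of 48 members had a mean of at least 10 FPKM, and IFITM3 and LY6E exceeded 100 FPKM. The means of 6 members were under 1 FPKM in every group. Of these, 5 (USP18, MX2, RSAD2, CMPK2 and IFI44L) did not reach 0.5 FPKM in any group and were not tested, which left 43 tested members. The sum over the 48 genes was 1013, 1039 and 1032 FPKM in low glucose, 1063, 1072 and 1078 in high glucose, and 908, 895 and 909.6 with chrysin. The chrysin libraries were the 3 lowest. The median member, which is not weighted toward the few abundant genes, stood at 6.64, 7 and 7.06 FPKM, then 6.84, 7.45 and 7.49, and then 5.19, 5.09 and 5.

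Most of these genes were lower in high glucose with chrysin than in high glucose alone, and a few were higher. Of 43 tested members, 30 fell and 5 rose, while 20.9% of all tested genes fell and 24.9% rose. The median member difference was -0.46 on the log2 scale (range -1.35 to 2.05), against 0.03 over all tested genes. The 2 members that fell by at least 1 were IFITM1 and IFI44. The 5 that rose were IFI27, SP110, GBP1, OAS3 and EIF2AK2. Chrysin and high glucose values did not overlap, and were lower with chrysin, for 30 members (24.5% of all genes). They did not overlap and were higher with chrysin for 6 members (29.8% of all genes). The filter on low values removed 5 members from these counts. Without high glucose library 1, the library furthest from its group, 29 members fell and 5 rose.

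High glucose against low glucose gave smaller differences. Here 10 members rose and 4 fell, against 14.6% and 8.91% of all genes, with a median of 0.12 (range -0.55 to 0.65) against 0.02 for all genes. The members that rose were IFIT1, TRIM21, SAMD9, PARP9, SP110, DTX3L, IFI44, PARP14, OAS3 and ADAR. Those that fell were XAF1, DHX58, GBP1 and STAT2. Over all genes, 2488 rose and 1514 fell, and with median-of-ratios scaling the split was 1987 and 1869; that scaling called 9 members higher and 4 lower. Without low glucose library 1, 5 members were called higher. The count of members called lower was 1 on omitting low glucose library 2, low glucose library 3 or high glucose library 1, and 2 on omitting high glucose library 3.

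Chrysin in high glucose was also set against low glucose. There 7 members rose and 23 fell, against 29.7% and 21.3% of all genes, with a median of -0.36 (range -1.37 to 2.52) against 0.05. The 3 comparisons share their libraries, so their values are given side by side and are not independent. In the heat map of members by library, the 3 chrysin libraries are lower for most rows.

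**Figure D1:**
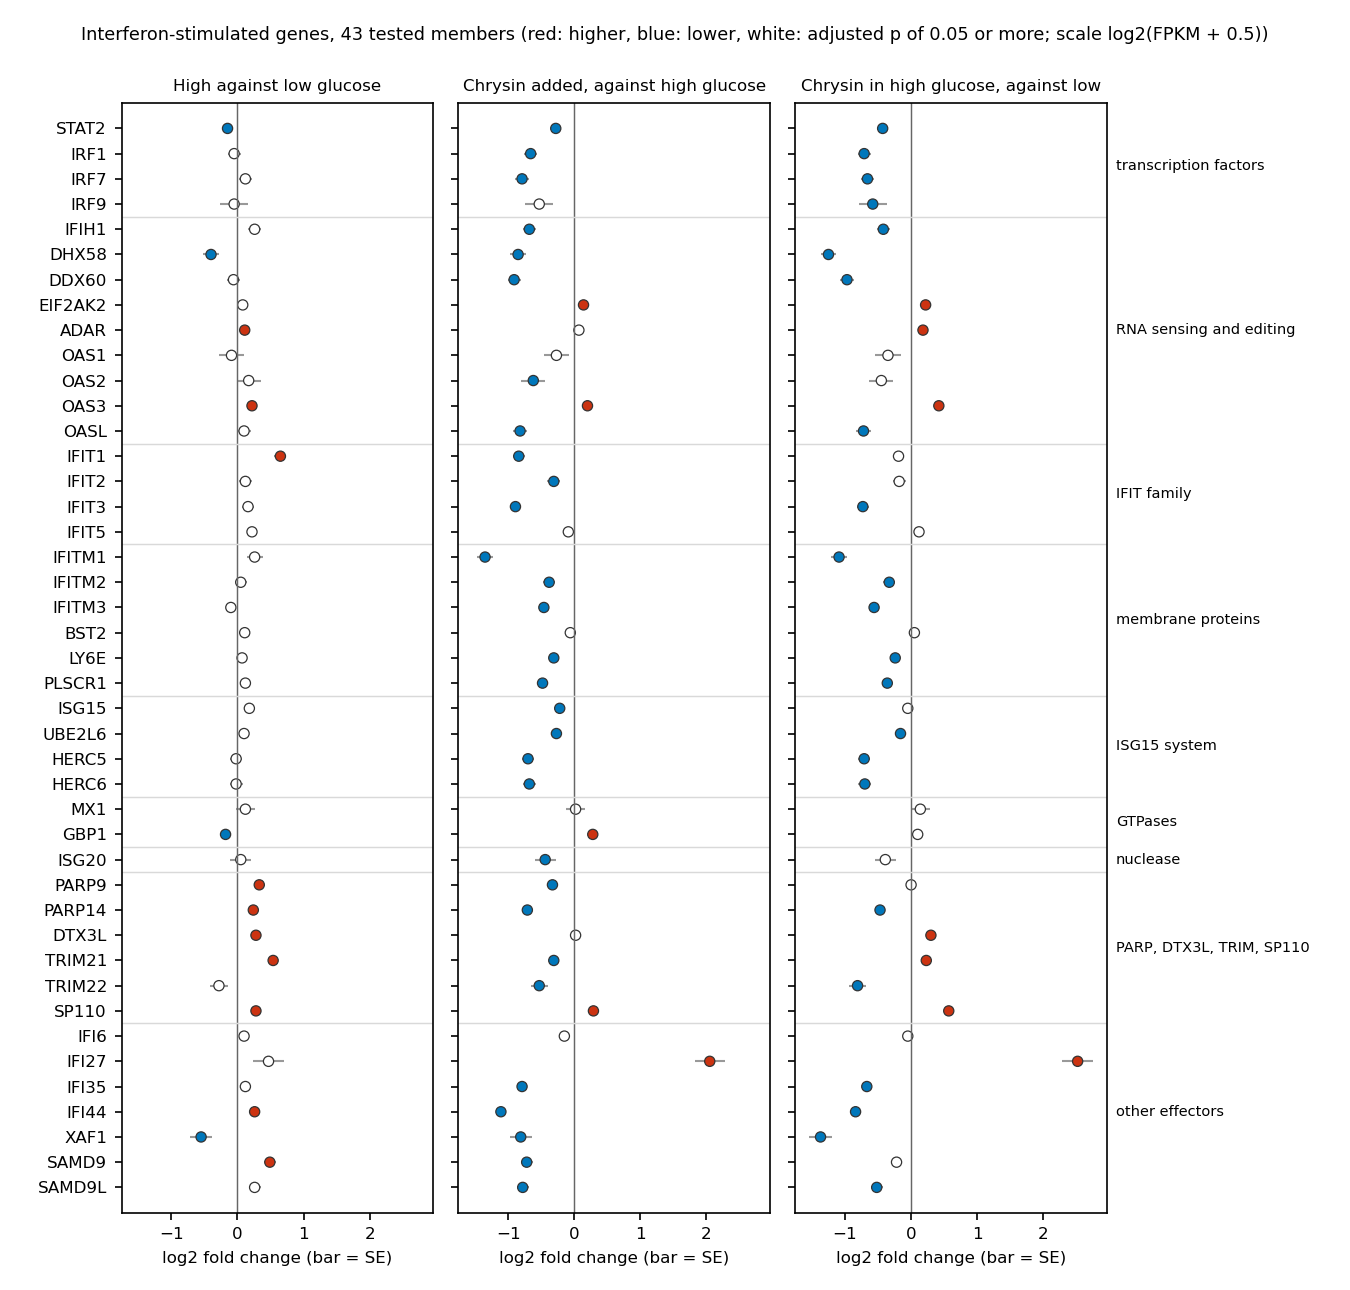
Log2 fold changes (x axes, log2(FPKM + 0.5)) of the 43 tested members in 3 comparisons, with bars of 1 SE, grouped by role; red points rose, blue points fell and white points had an adjusted p of 0.05 or more. The middle panel, chrysin against high glucose, has 30 blue and 5 red points, and the left panel, high against low glucose, has 4 blue and 10 red.

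**Figure D2:**
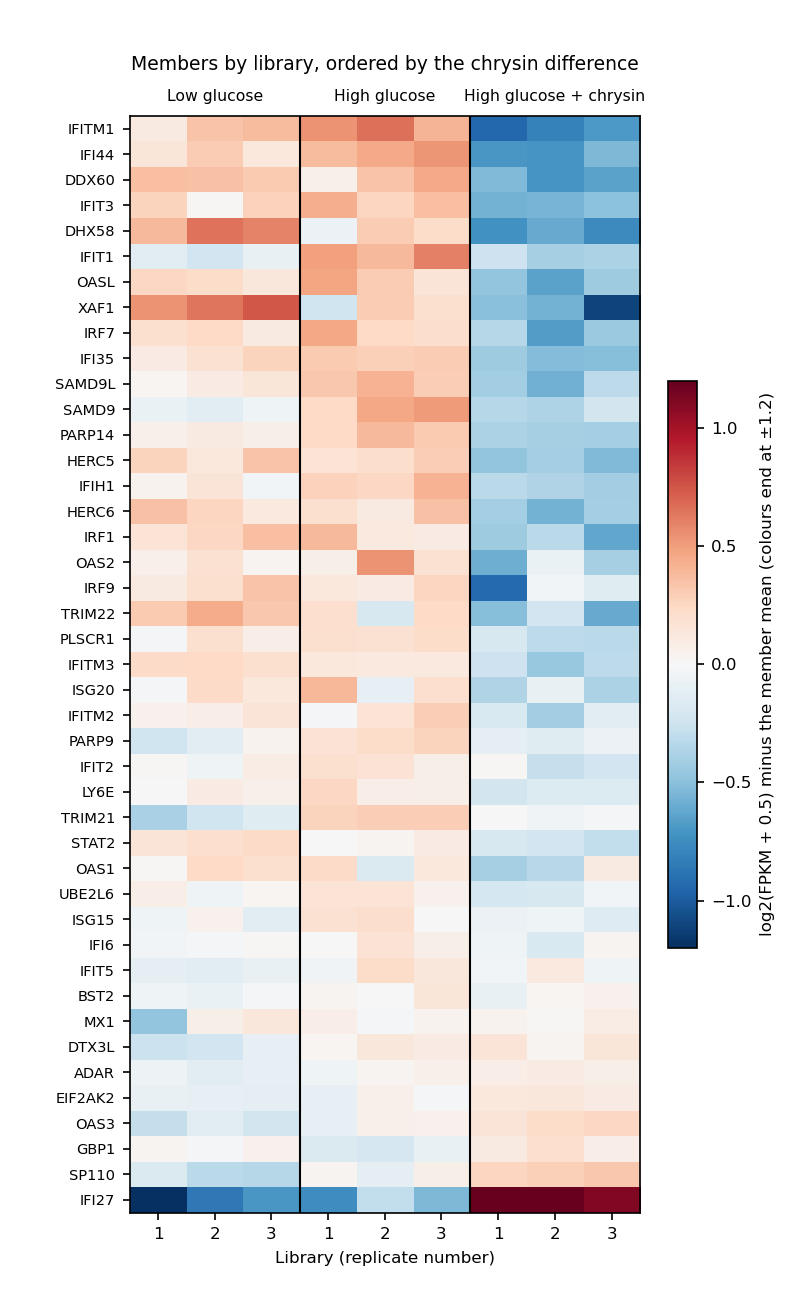
Level of each tested member in each of the 9 libraries (columns, replicate number on the x axis), as log2(FPKM + 0.5) minus that member's mean over libraries, with members on the y axis ordered by the chrysin difference. IFITM1 and IFI44 at the top are lowest in the chrysin libraries, and IFI27 at the bottom is highest there.

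The response element was looked for in the promoters. The list holds interferon-stimulated genes, so a high share with this element follows in part from how the list was made. RefSeq promoter windows (250 bases before to 50 after a transcription start, GRCh38.p14) were matched by symbol for 38 of the 48 genes. Genes without an entry were DHX58, IFIT2, IFITM2, IRF7, LY6E, MX2, OAS2, OASL, TRIM22 and USP18. The ISRE core (GAAA, any 2 bases, GAAA), read on both strands, was present in 26 of 38 members (68.4%), in 1195 of 27305 genes (4.38%) and in 1255 of 35116 windows (3.57%). Overlapping matches were each counted. By the chrysin comparison, the core was present in 15 of the 22 members with a window that fell (68.2%), in 4 of 5 that rose (80.0%) and in 5 of 8 that did neither (62.5%). The core of the gamma-activated site, the element of interferon gamma signalling, TTCNNNGAA, which reads the same on both strands, was present in 12 of 38 members (31.6%) and 9.38% of genes. It was in 6 of 22 members that fell, 2 of 5 that rose and 4 of 8 that did neither. A match is a description of these letters and not a measured binding site.

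The following stretches are printed because they set members that fell with chrysin (IFI44, IFIT1, IFIT3, ISG15, HERC5 and DDX60) beside members that rose (OAS3, GBP1, IFI27 and EIF2AK2) and beside PARP9, whose match lies where its annotated span overlaps that of its neighbour DTX3L. Each runs 5′ to 3′ on the strand of the gene, and capitals mark the ISRE core or its reverse complement. Runs of capitals longer than 1 core are overlapping matches.
IFI44: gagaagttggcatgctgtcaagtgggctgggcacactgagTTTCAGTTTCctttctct
IFIT1: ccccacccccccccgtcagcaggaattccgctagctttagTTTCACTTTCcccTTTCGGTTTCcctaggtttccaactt
IFIT3: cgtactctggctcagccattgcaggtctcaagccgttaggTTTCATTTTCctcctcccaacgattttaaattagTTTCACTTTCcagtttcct
ISG15: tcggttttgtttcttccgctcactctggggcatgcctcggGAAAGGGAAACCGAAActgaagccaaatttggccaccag
HERC5: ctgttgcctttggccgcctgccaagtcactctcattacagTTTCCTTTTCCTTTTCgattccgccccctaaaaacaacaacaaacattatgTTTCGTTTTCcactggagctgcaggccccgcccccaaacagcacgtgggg
DDX60: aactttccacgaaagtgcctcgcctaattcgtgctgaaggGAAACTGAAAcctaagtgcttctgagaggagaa
OAS3: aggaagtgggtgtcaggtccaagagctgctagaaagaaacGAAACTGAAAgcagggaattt
GBP1: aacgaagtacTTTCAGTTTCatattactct
IFI27: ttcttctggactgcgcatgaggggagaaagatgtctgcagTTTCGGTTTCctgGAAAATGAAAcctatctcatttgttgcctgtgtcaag
EIF2AK2: agtccaagggGAAAACGAAActgagaacca
PARP9: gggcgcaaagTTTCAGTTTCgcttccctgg
IFI44 has its match 18 bases before the RefSeq start used, within chr1:78649731-78649788 on the plus strand. The stretch of IFIT1 is chr10:89392467-89392545, and that of IFIT3 is chr10:89327801-89327893, both on the plus strand and both with 2 matches. ISG15 was read from chr1:1013344-1013422, with 2 overlapping matches, and HERC5 from chr4:88456954-88457094, with 3 matches, also on the plus strand. DDX60 is on the minus strand at chr4:168318808-168318880. Among the members that rose, OAS3 was read from chr12:112938291-112938351 (plus), GBP1 from chr1:89065316-89065345 (minus), IFI27 from chr14:94110588-94110677 (plus, 2 matches) and EIF2AK2 from chr2:37156967-37156996 (minus). The windows of DDX60 and OAS3 each hold a further match outside the printed stretch, beginning 53 and 12 bases before the start. PARP9 was read from chr3:122564322-122564351 on the minus strand. The promoter window of DTX3L holds this same match of PARP9, read on the other strand. There it begins 6 bases before the RefSeq start of DTX3L and runs across it. PARP9 and DTX3L thus share this core, which was counted for each of them. The stretches were printed only for members with a match, so they do not compare the directions. Over all members with a window, the core was present in 15 of 22 that fell and 4 of 5 that rose.

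The transcription factors among the 48 members were lower with chrysin. Of 4, 3 fell against high glucose, and all 4 were lower than in low glucose. The shares of all tested genes that fell were 20.9% and 21.3%. STAT2, a subunit of ISGF3, was at 42.1, 43.4 and 44.4 FPKM under low glucose, 37.7, 38.6 and 40.5 under high glucose and 32.9, 32.2 and 30.7 with chrysin. The 3 groups did not overlap, and STAT2 fell with high glucose (log2 difference -0.15, SE 0.04, adjusted p = 0.024) and again with chrysin (log2 difference -0.28, SE 0.04, adjusted p = 0.00027). The glucose call for STAT2 was lost on leaving out low glucose library 2 or 3 (adjusted p = 0.065 and 0.088) or else high glucose library 1 or 2 (0.062 and 0.068). IRF1, an activator that acts at the ISRE by itself, was at 10.9, 11.6 and 12.6 FPKM under low glucose, 12.9, 10.6 and 10.4 under high glucose and 7.11, 7.63 and 6.11 with chrysin. Every chrysin value of IRF1 was below every other value (log2 difference -0.66, SE 0.10, adjusted p = 0.00033). IRF7, the factor that amplifies interferon production, was at 7.38, 7.66 and 6.91 FPKM under low glucose, 9, 7.63 and 7.49 under high glucose and 4.95, 3.83 and 4.57 with chrysin, with the chrysin libraries again lowest (log2 difference -0.79, SE 0.10, adjusted p = 0.0001). IRF9, the subunit that gives ISGF3 its DNA contact, was low, with 10 to 37 reads, and stood at 1.82, 1.96 and 2.23 FPKM under low glucose, 1.86, 1.8 and 2.07 under high glucose and 0.627, 1.6 and 1.45 with chrysin. Its values did not overlap between chrysin and high glucose, but the difference missed the threshold (log2 difference -0.53, SE 0.21, adjusted p = 0.061). Against low glucose IRF9 fell (log2 difference -0.58, SE 0.21, adjusted p = 0.039). That call was lost in 9 of 17 alternatives, and without chrysin library 1 the difference was -0.30 (adjusted p = 0.096). Leaving out any low or high glucose library also ended it, with adjusted p from 0.05 to 0.11. Without chrysin library 2 the difference of IRF9 from high glucose was -0.70 (adjusted p = 0.029). The exon reads of IRF9 may include a same-strand gene that overlaps it, and those of IRF1 an overlapping gene on the other strand, since strand use in counting is not given.

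Of the 9 members that sense or act on foreign RNA, 5 fell and 2 rose with chrysin. The shares of all tested genes were 20.9% and 24.9%, so the rises were about as frequent as among genes in general. RIGI, a main sensor of foreign RNA that is not among the 48 members, was not called with chrysin (log2 difference -0.17, SE 0.09, adjusted p = 0.16). IFIH1, which encodes the RNA sensor MDA5, was at 2.56, 2.8 and 2.4 FPKM under low glucose, 3.09, 3.02 and 3.45 under high glucose and 1.87, 1.81 and 1.72 with chrysin. The chrysin libraries were lowest (log2 difference -0.68, SE 0.10, adjusted p = 0.00033). DHX58, which encodes LGP2, a helicase that tunes MDA5, was at 5.63, 6.86 and 6.58 FPKM under low glucose, 3.95, 5.27 and 4.96 under high glucose and 2.32, 2.58 and 2.25 with chrysin. It fell in high glucose (log2 difference -0.40, SE 0.12, adjusted p = 0.032) and fell further with chrysin (log2 difference -0.85, SE 0.12, adjusted p = 0.00016), and the groups did not overlap in either step. The glucose call for DHX58 was lost on leaving out low glucose library 2 or 3 (adjusted p = 0.11 and 0.098), high glucose library 1 or 3 (0.095 and 0.051) or the filter (0.079) and in a fit of those groups alone (0.072). DDX60, a helicase that assists RNA sensing, was at 7.95, 7.92 and 7.69 FPKM under low glucose, 6.36, 7.87 and 8.52 under high glucose and 4.07, 3.53 and 3.73 with chrysin, and with chrysin it fell (log2 difference -0.91, SE 0.10, adjusted p = 3.6e-05). OASL, an OAS relative without enzyme activity, was at 3.78, 3.69 and 3.46 FPKM under low glucose, 4.48, 3.93 and 3.51 under high glucose and 2.09, 1.81 and 2.18 with chrysin and also fell (log2 difference -0.82, SE 0.11, adjusted p = 0.00013).

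Among the enzymes, EIF2AK2, the kinase PKR that halts translation, moved the other way, at 46.8, 46.6 and 46.3 FPKM under low glucose, 46.5, 52.2 and 49.2 under high glucose and 54.4, 54.8 and 53.5 with chrysin. Its rise with chrysin was small (log2 difference 0.14, SE 0.04, adjusted p = 0.018), and was not called without chrysin library 2 (adjusted p = 0.055). High and low glucose values of EIF2AK2 overlapped, and without high glucose library 1 the difference was 0.12 (adjusted p = 0.034). ADAR, which edits adenosine to inosine in double-stranded RNA, was at 80.8, 77.1 and 78.8 FPKM under low glucose, 81.4, 86.1 and 87.8 under high glucose and 89.2, 90.5 and 88.7 with chrysin. ADAR rose with high glucose (log2 difference 0.11, SE 0.03, adjusted p = 0.044), a call lost in 13 of 18 alternatives with adjusted p up to 0.14. Those included leaving out any library but high glucose library 1 (0.053 to 0.14), median-of-ratios scaling (0.12) and the correction for GC content and length (0.052). Against low glucose, ADAR with chrysin was higher (log2 difference 0.18, SE 0.03, adjusted p = 0.0012), and against high glucose it was not called (log2 difference 0.07, SE 0.03, adjusted p = 0.11).

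The OAS genes make short oligoadenylates, the messengers that activate RNase L, and they lie together on chromosome 12 in the order OAS1, OAS3, OAS2. OAS3 was the abundant one, at 46.2, 51.3 and 48.4 FPKM under low glucose, 52.7, 58.8 and 58.4 under high glucose and 62.9, 66 and 67 with chrysin. The 3 groups formed steps without overlap. OAS3 rose with high glucose (log2 difference 0.22, SE 0.05, adjusted p = 0.012) and rose again with chrysin (log2 difference 0.20, SE 0.05, adjusted p = 0.0081). Without low glucose library 1 the first rise had an adjusted p of 0.051. OAS2, at 1.18, 1.33 and 1.15 FPKM under low glucose, 1.19, 1.84 and 1.33 under high glucose and 0.571, 1.02 and 0.719 with chrysin, rested on 23 to 93 reads. It fell with chrysin (log2 difference -0.62, SE 0.18, adjusted p = 0.015). On recovered reads the difference of OAS2 was -0.94 (adjusted p = 0.0024), and the call was lost without high glucose library 2 (0.065) or chrysin library 1 (0.057). Against low glucose OAS2 was not called (log2 difference -0.45, SE 0.18, adjusted p = 0.057), though it was without high glucose library 2 (0.049) or chrysin library 2 (0.025). OAS1 rested on 8 to 20 reads, had means of 0.785 ± 0.1, 0.717 ± 0.17 and 0.516 ± 0.2 FPKM in low glucose, high glucose and chrysin, and was called in no comparison. All 3 overlap another annotated gene, and which reads were assigned to it is not given.

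The IFIT proteins bind foreign RNA ends and stop their translation, and their genes lie in a row on chromosome 10 in the order IFIT2, IFIT3, IFIT1, IFIT5. Of the 4, 3 fell with chrysin, where 20.9% of all tested genes fell. IFIT1, which recognises RNA caps that lack ribose methylation, was at 3.3, 3.06 and 3.42 FPKM under low glucose, 5.37, 4.97 and 5.83 under high glucose and 3.02, 2.67 and 2.7 with chrysin. High glucose stood above both other groups without overlap. IFIT1 rose with high glucose (log2 difference 0.65, SE 0.09, adjusted p = 0.00078) and fell with chrysin (log2 difference -0.84, SE 0.09, adjusted p = 3.9e-05), to a level not called different from low glucose (log2 difference -0.19, SE 0.09, adjusted p = 0.12). IFIT3, the partner that stabilises IFIT1, was at 8.62, 7.15 and 8.67 FPKM under low glucose, 9.76, 8.53 and 9.2 under high glucose and 4.59, 4.62 and 4.89 with chrysin. It fell below both other groups (log2 difference -0.89, SE 0.09, adjusted p = 1.4e-05). IFIT2 was at 3.37, 3.19 and 3.58 FPKM under low glucose, 3.87, 3.8 and 3.51 under high glucose and 3.36, 2.66 and 2.76 with chrysin, and the fall from high glucose was small (log2 difference -0.31, SE 0.10, adjusted p = 0.031). The call for IFIT2 was lost without high glucose library 1 or 2 (adjusted p = 0.081 and 0.08), without chrysin library 2 or 3 (0.11 and 0.096), without the filter (0.063) and in a fit of those groups alone (0.054). IFIT5, at the end of the row, had means of 5.69 ± 0.084, 6.72 ± 0.65 and 6.25 ± 0.44 FPKM and was called in no comparison. Without high glucose library 1 the glucose difference of IFIT5 was 0.29 (adjusted p = 0.029). IFIT1, IFIT2 and IFIT3 overlap LIPA on the other strand in the annotation, and without strand the reads of the overlap cannot be told apart.

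Of 6 membrane proteins, 5 fell with chrysin and none was called between the glucose levels. Among all tested genes, 20.9% fell with chrysin, and 14.6% rose and 8.91% fell with high glucose. The IFITM proteins stiffen endosomal membranes and so block the fusion of virus. IFITM3 was the most abundant member, at 184, 185 and 179 FPKM under low glucose, 171, 170.4 and 170.4 under high glucose and 132, 114 and 126 with chrysin. Each chrysin value was under the lowest value of both other groups (log2 difference -0.46, SE 0.04, adjusted p = 1.3e-05). Without chrysin library 2 the glucose difference of IFITM3 was -0.10 (adjusted p = 0.035). IFITM2 was at 30.4, 31 and 32.6 FPKM under low glucose, 28.8, 32.9 and 36.1 under high glucose and 25.8, 21.9 and 26.9 with chrysin, a smaller fall (log2 difference -0.38, SE 0.09, adjusted p = 0.0044). IFITM1 was at 3.05, 3.69 and 3.79 FPKM under low glucose, 4.31, 4.71 and 3.89 under high glucose and 1.22, 1.38 and 1.55 with chrysin, on 13 to 63 reads, and its fall was the largest of the tested members (log2 difference -1.35, SE 0.12, adjusted p = 7.1e-06). These genes are related copies side by side on chromosome 11. IFITM1 lies within the annotated span of IFITM2 on the same strand, so the split of reads between these genes is uncertain. LY6E, a surface protein that restricts coronaviruses, was at 139, 148 and 144 FPKM under low glucose, 164, 146 and 145 under high glucose and 119, 123 and 123 with chrysin. It fell with chrysin (log2 difference -0.31, SE 0.05, adjusted p = 0.00022). PLSCR1, a membrane protein that also enters the nucleus, was at 31.3, 36.5 and 33.6 FPKM under low glucose, 36.4, 36.1 and 37.2 under high glucose and 27.8, 25.5 and 25.3 with chrysin and fell (log2 difference -0.48, SE 0.06, adjusted p = 6.5e-05). BST2, the tether that holds budding virus, had means of 34.8 ± 0.69, 37.7 ± 2.1 and 36.1 ± 1.8 FPKM. BST2 was called in no comparison, and with the correction for GC content and length its chrysin difference was -0.19 (adjusted p = 0.01).

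All 4 tested genes grouped here with ISG15 fell with chrysin, as did 20.9% of all tested genes. HERC6 was placed in this group beside its neighbour HERC5, and its part in ISG15 attachment was not tested. The 4 differences ran from -0.22 for the modifier to -0.70 for a ligase. ISG15, the modifier itself, was at 33.5, 36.2 and 31.8 FPKM under low glucose, 39.7, 40.4 and 34.9 under high glucose and 33.2, 33.5 and 31.3 with chrysin. High glucose overlapped low glucose and lay above chrysin (log2 difference -0.22, SE 0.06, adjusted p = 0.015). That call was lost without high glucose library 2 (adjusted p = 0.061) or chrysin library 3 (0.06). In high against low glucose ISG15 was not called (log2 difference 0.18, SE 0.06, adjusted p = 0.071), but it passed on omitting low glucose library 2 (0.044) or else high glucose library 3 (0.017) and with the replicate block (0.018). UBE2L6, the E2 enzyme that carries ISG15, was at 35.3, 32.2 and 33.9 FPKM under low glucose, 37.3, 37.4 and 34.5 under high glucose and 28.8, 29.1 and 32.6 with chrysin and fell (log2 difference -0.27, SE 0.06, adjusted p = 0.0031). Against low glucose UBE2L6 fell by 0.16 (adjusted p = 0.036), a call lost on leaving out low glucose library 1 or 3 (0.12 and 0.081) or chrysin library 1 or 2 (0.12 and 0.12). HERC5, the main E3 ligase for ISG15 in human cells, was at 4.74, 4.26 and 5.04 FPKM under low glucose, 4.4, 4.55 and 4.87 under high glucose and 2.64, 2.8 and 2.52 with chrysin. Low and high glucose overlapped and chrysin lay below both (log2 difference -0.70, SE 0.09, adjusted p = 0.00012). Its neighbour HERC6 on chromosome 4 was at 5.96, 5.56 and 5.01 FPKM under low glucose, 5.29, 4.96 and 5.98 under high glucose and 3.32, 2.91 and 3.32 with chrysin, with a like difference (log2 difference -0.68, SE 0.10, adjusted p = 0.00023). USP18, which removes ISG15 and blocks the receptor, was listed at 0.663 FPKM at most and was not tested.

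Among the members, neither of the 2 tested interferon-induced GTPases fell with chrysin, and 1 rose. Of all tested genes, 20.9% fell and 24.9% rose. Outside the members, the related GBP3 (log2 difference -0.74, SE 0.05, adjusted p = 1.4e-06) and GBP2 (log2 difference -0.29, SE 0.10, adjusted p = 0.029) fell with chrysin. The call of GBP2 was not followed through the alternatives. GBP1, which coats membranes around intracellular pathogens, was at 61.4, 59.6 and 62.3 FPKM under low glucose, 53, 52.2 and 56.5 under high glucose and 64.5, 69.2 and 63.4 with chrysin. High glucose was lowest without overlap. GBP1 fell with high glucose (log2 difference -0.18, SE 0.04, adjusted p = 0.012) and rose with chrysin (log2 difference 0.28, SE 0.04, adjusted p = 0.00032), the only member called in these opposite directions. Against low glucose its value with chrysin was not called (log2 difference 0.10, SE 0.04, adjusted p = 0.065), although it was without high glucose library 3 (adjusted p = 0.048). MX1, a dynamin-like GTPase that blocks influenza virus, had means of 5.02 ± 1.2, 5.4 ± 0.18 and 5.47 ± 0.16 FPKM. MX1 was called in no comparison, and its lowest value was low glucose library 1 at 3.66 FPKM. MX2 reached 0.635 FPKM at most and was not tested. Of the antiviral enzymes that act on nucleotides, RSAD2 (viperin) reached 0.271 FPKM and CMPK2 0.0583 FPKM, and neither was tested. ISG20, an RNA exonuclease, was at 1.4, 1.76 and 1.6 FPKM under low glucose, 2.04, 1.3 and 1.71 under high glucose and 1, 1.31 and 0.982 with chrysin, on 27 to 61 reads. It was called lower with chrysin (log2 difference -0.44, SE 0.16, adjusted p = 0.044) although its groups overlapped. The call was lost in 10 of 17 alternatives, with an adjusted p of 0.15 without high glucose library 1. Leaving out any low glucose library, high glucose library 3, or chrysin library 1 or 3 also ended it, with adjusted p from 0.051 to 0.12. Against low glucose ISG20 was not called (log2 difference -0.39, SE 0.16, adjusted p = 0.066), but it was without high glucose library 2 (0.048) or chrysin library 2 (0.047).

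Of 6 genes for ADP-ribosylation, ubiquitin ligation and nuclear bodies, 5 rose in high glucose, and with chrysin 4 fell and 1 rose. The shares of all tested genes were 14.6% in high glucose, and 20.9% and 24.9% with chrysin. TRIM21, an antibody receptor in the cytosol and a ubiquitin ligase, was at 6.02, 6.74 and 7.22 FPKM under low glucose, 9.78, 9.99 and 9.99 under high glucose and 8.01, 7.82 and 7.89 with chrysin. The groups did not overlap, with chrysin between low and high glucose. TRIM21 rose with high glucose (log2 difference 0.54, SE 0.07, adjusted p = 0.00038) and fell with chrysin (log2 difference -0.31, SE 0.07, adjusted p = 0.0043). It stayed higher than in low glucose (log2 difference 0.23, SE 0.07, adjusted p = 0.017), a call lost on leaving out low glucose library 1 (0.17, adjusted p = 0.064) and with median-of-ratios scaling (0.18, adjusted p = 0.056). PARP9 is a partner of the ubiquitin ligase DTX3L, and their starts lie side by side on opposite strands of chromosome 3. PARP9 was at 5.1, 5.54 and 6.34 FPKM under low glucose, 6.97, 7.21 and 7.48 under high glucose and 5.64, 5.48 and 5.8 with chrysin. PARP9 rose with high glucose (log2 difference 0.33, SE 0.08, adjusted p = 0.016) and fell with chrysin (log2 difference -0.33, SE 0.08, adjusted p = 0.0077) to the range of low glucose. DTX3L was at 12.2, 12.4 and 13.7 FPKM under low glucose, 14.9, 16.2 and 15.7 under high glucose and 16.4, 15 and 16.3 with chrysin. DTX3L rose with high glucose (log2 difference 0.28, SE 0.06, adjusted p = 0.0081), but its chrysin and high glucose values overlapped (log2 difference 0.02, SE 0.06, adjusted p = 0.78). PARP14, a mono-ADP-ribosyltransferase, was at 8.07, 8.37 and 8.15 FPKM under low glucose, 9.24, 10.3 and 9.77 under high glucose and 5.82, 5.76 and 5.72 with chrysin. It rose (log2 difference 0.24, SE 0.06, adjusted p = 0.019) and then fell below the low glucose level (log2 difference -0.71, SE 0.06, adjusted p = 7e-06). The glucose calls were lost on leaving out low glucose library 1 for PARP9 and PARP14 (adjusted p = 0.06 and 0.059). PARP9 also lost it without high glucose library 3 (0.052), and PARP14 without high glucose library 2 (0.071) or low glucose library 3 (0.055). PARP9 and DTX3L overlap at their starts on opposite strands, where reads cannot be assigned without strand.

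SP110, a nuclear body protein, was at 13.9, 12.5 and 12.3 FPKM under low glucose, 16.1, 14.6 and 16.6 under high glucose and 18.9, 19.3 and 19.8 with chrysin. SP110 rose with high glucose (log2 difference 0.28, SE 0.06, adjusted p = 0.0097) and again with chrysin (log2 difference 0.29, SE 0.06, adjusted p = 0.0038). OAS3 was the other member called higher in both steps. TRIM22, which represses viral transcription, was at 7.25, 8.04 and 7.34 FPKM under low glucose, 6.71, 4.99 and 6.88 under high glucose and 3.89, 4.84 and 3.61 with chrysin. It was not called between glucose levels (log2 difference -0.28, SE 0.13, adjusted p = 0.15), and fell with chrysin (log2 difference -0.53, SE 0.13, adjusted p = 0.0063). SP110 overlaps SP140, and TRIM22 overlaps TRIM5, in the annotation.

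Of the 7 other tested effectors, 5 fell and 1 rose with chrysin, against 20.9% and 24.9% of all tested genes. IFI44, a cytoplasmic protein of the antiviral response (ENSG00000137965.10, chr1:78649796-78664078, plus strand), was at 23.2, 26 and 22.9 FPKM under low glucose, 27.3, 28.9 and 30.4 under high glucose and 12.7, 12.6 and 14.2 with chrysin. Its chrysin libraries stood at less than all other libraries, and high glucose stood above low glucose. IFI44 rose with high glucose (log2 difference 0.26, SE 0.07, adjusted p = 0.016) and fell 2.15-fold with chrysin (log2 difference -1.11, SE 0.07, adjusted p = 6e-07). The glucose call was lost on leaving out low glucose library 1 or 3 (adjusted p = 0.063 and 0.066) or high glucose library 3 (0.06). Its neighbour IFI44L reached only 0.283 FPKM and was not tested. IFI35, a leucine zipper protein released from damaged cells, was at 31, 33 and 34.9 FPKM under low glucose, 36.2, 35.5 and 36 under high glucose and 21.4, 20 and 20.2 with chrysin. Chrysin was lowest, with little spread (log2 difference -0.79, SE 0.05, adjusted p = 6.3e-07). In high against low glucose IFI35 was not called (log2 difference 0.12, SE 0.05, adjusted p = 0.095), but it was without low glucose library 3 (0.16, adjusted p = 0.047).

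IFI27, a mitochondrial protein widely used as a blood marker of interferon exposure (ENSG00000165949.12, chr14:94104836-94116698, plus strand), differed most of the tested members and rose with chrysin. It was at 0.207, 0.554 and 0.679 FPKM under low glucose, 0.636, 1.06 and 0.813 under high glucose and 5.49, 6.16 and 3.63 with chrysin, on 3 to 80 reads. All 3 chrysin libraries were above every other library (log2 difference 2.05, SE 0.23, adjusted p = 4.4e-05), and on recovered reads the difference was 2.51 (adjusted p = 3e-06). IFI27 was not called between the glucose levels (log2 difference 0.47, SE 0.23, adjusted p = 0.18). IFI6, a related mitochondrial protein, had means of 39.3 ± 0.69, 42.2 ± 2.5 and 38 ± 2.9 FPKM. It was called in no comparison, although its chrysin difference was -0.19 without high glucose library 1 (adjusted p = 0.03) and -0.20 without chrysin library 3 (0.022).

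XAF1, which counters an inhibitor of apoptosis, was at 7.67, 8.3 and 8.92 FPKM under low glucose, 4.28, 6.46 and 5.93 under high glucose and 3.48, 3.31 and 2.1 with chrysin. The groups formed descending steps without overlap. XAF1 fell with high glucose (log2 difference -0.55, SE 0.17, adjusted p = 0.042) and with chrysin (log2 difference -0.81, SE 0.17, adjusted p = 0.003), and the second step gave the lowest difference from low glucose of any member (log2 difference -1.37, SE 0.17, adjusted p = 7.4e-05). The glucose call was lost in 8 of 18 alternatives, with adjusted p of 0.071, 0.099 and 0.13 without low glucose libraries 1, 2 and 3, 0.13 and 0.064 without high glucose libraries 1 and 3, 0.053 without chrysin library 2, 0.12 without the filter and 0.058 with the replicate block. SAMD9 and SAMD9L are neighbours on chromosome 7 whose products restrict poxviruses and cell growth. SAMD9 was at 5.67, 5.43 and 5.78 FPKM under low glucose, 7.2, 8.48 and 8.76 under high glucose and 4.63, 4.53 and 5.1 with chrysin. It rose with high glucose (log2 difference 0.49, SE 0.09, adjusted p = 0.0024) and fell with chrysin (log2 difference -0.72, SE 0.09, adjusted p = 6.5e-05). Against low glucose SAMD9 missed the threshold (log2 difference -0.22, SE 0.09, adjusted p = 0.052), and passed it in 8 of 18 alternatives, including those without high glucose library 1 (0.026) or chrysin library 3 (0.044). SAMD9L was at 5.27, 5.59 and 5.79 FPKM under low glucose, 6.63, 7.08 and 6.5 under high glucose and 3.77, 3.31 and 4.09 with chrysin. It was just short of a call with high glucose (log2 difference 0.26, SE 0.09, adjusted p = 0.055), passed without chrysin library 2 (0.041), and fell with chrysin (log2 difference -0.78, SE 0.09, adjusted p = 3.8e-05).

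**Figure D3:**
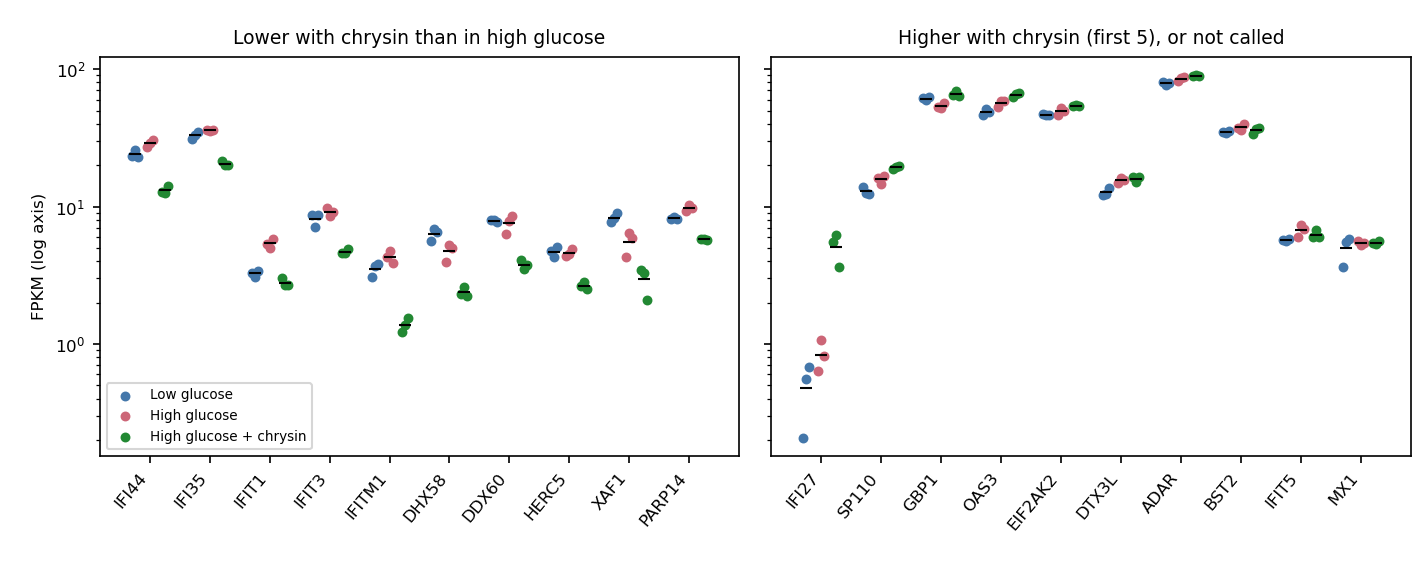
FPKM (log axis) in each library for 10 members called lower with chrysin (left) and 10 called higher (the first 5) or not called (right), with dots for libraries and lines for means of 3. IFI44 libraries with chrysin lie at 12.7 to 14.2 FPKM, below the 22.9 to 30.4 of the other libraries, and IFI27 libraries with chrysin lie at 3.63 to 6.16 FPKM, above all others.

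The members called higher with high glucose and then lower with chrysin numbered 6, namely IFIT1, PARP9, PARP14, TRIM21, IFI44 and SAMD9. In both steps 3 members (STAT2, DHX58 and XAF1) were called lower, 2 (OAS3 and SP110) higher in both, and 1 (GBP1) lower and then higher. Over all tested genes, 5.31% were called higher and then lower, 2.34% lower in both, 3.74% higher in both and 3.25% lower and then higher. Both steps use the high glucose libraries, so a high or low value there moves them in opposite directions. Against both other groups, 22 members were called lower with chrysin and 4 higher, as were 15.0% and 19.9% of all tested genes. These comparisons share the chrysin libraries. The 5 tested members called in none of the 3 comparisons were OAS1, IFIT5, BST2, MX1 and IFI6.

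Neighbouring genes of a family differed in how they changed, and the ratio of their levels within a library is free of that library's scaling. The pairs were chosen after the values were seen, so their ratios are a description with no test. PARP9 stood at 0.417, 0.446 and 0.462 of the DTX3L level in low glucose, at 0.467, 0.445 and 0.477 in high glucose, and at 0.345, 0.365 and 0.356 with chrysin. OAS2 stood at 0.0255, 0.0259 and 0.0237 of OAS3 in low glucose, at 0.0225, 0.0313 and 0.0228 in high glucose, and at 0.00909, 0.0155 and 0.0107 with chrysin. For both pairs the chrysin ratios were the 3 lowest, and low and high glucose overlapped. The ratio of IFIT1 to IFIT5 was 0.582, 0.545 and 0.592 in low glucose, 0.895, 0.683 and 0.848 in high glucose, and 0.501, 0.394 and 0.453 with chrysin. IFITM1 stood at 0.0166, 0.0199 and 0.0212 of IFITM3 in low glucose, at 0.0252, 0.0276 and 0.0228 in high glucose, and at 0.00926, 0.0121 and 0.0123 with chrysin. In these pairs the 3 groups did not overlap, with high glucose highest and chrysin lowest.

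**Figure D4:**
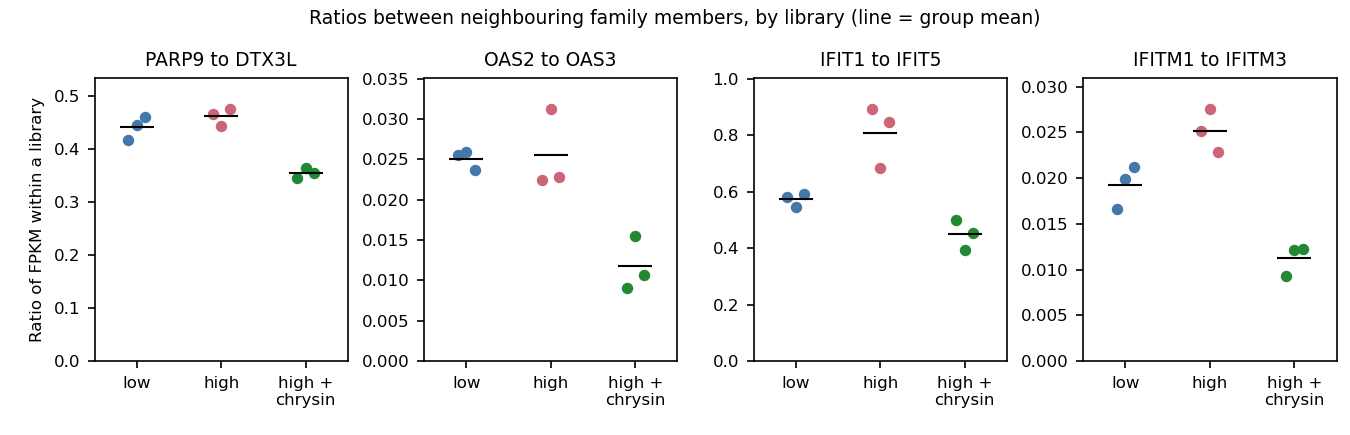
Ratio of FPKM within each library (y axes, from 0) for 4 pairs of neighbouring members in low glucose, high glucose and high glucose with chrysin, with a dot for each library and a line for each group mean. The chrysin dots are lowest in all 4 panels, for example 0.345 to 0.365 for PARP9 to DTX3L against 0.417 to 0.477 in the other groups.

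The interferons themselves were nearly absent. Of 21 ligand genes, 18 were at 0 in every library, IFNB1 and IFNG among them, and 20 stayed under 1 FPKM throughout. The 1 ligand tested was IFNE, an epithelial type I interferon, at 0.649, 0.708 and 0.782 FPKM under low glucose, 0.633, 0.471 and 0.731 under high glucose and 1.26, 1.42 and 1.44 with chrysin, on 16 to 47 reads. IFNE was highest with chrysin without overlap (0.76, SE 0.15, adjusted p = 0.0022), and on recovered reads the difference was 1.19 (adjusted p = 0.00087).

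Of 10 receptor and signalling genes, 3 rose with high glucose, and 2 fell and 2 rose with chrysin. Over all tested genes, 14.6% rose with high glucose, and 20.9% fell and 24.9% rose with chrysin, so the chrysin counts of this list are near those of genes in general. IFNAR2, the high-affinity receptor chain, was at 5.05, 4.92 and 4.78 FPKM under low glucose, 8.6, 7.9 and 6.71 under high glucose and 7.48, 8.07 and 8.52 with chrysin. It rose with high glucose (0.60, SE 0.09, adjusted p = 0.001) and was not called with chrysin (0.05, SE 0.09, adjusted p = 0.66). IFNAR1, the other chain, was at 39.8, 37.4 and 41.8 FPKM under low glucose, 46.7, 47.4 and 43.4 under high glucose and 49.4, 43.7 and 45.7 with chrysin, and rose with high glucose (0.21, SE 0.06, adjusted p = 0.022). IFNGR2, a chain of the interferon gamma receptor, was at 45.2, 43.8 and 45.9 FPKM under low glucose, 60.8, 57.6 and 56.3 under high glucose and 51.3, 56.5 and 52.8 with chrysin, and rose as well (0.37, SE 0.04, adjusted p = 0.00023). JAK1, the kinase on both receptors, was at 67.8, 66.8 and 69.2 FPKM under low glucose, 61.3, 66.6 and 67.5 under high glucose and 55.8, 58.2 and 56.2 with chrysin and fell with chrysin (-0.20, SE 0.04, adjusted p = 0.0021). IFNGR2 also fell slightly with chrysin (-0.12, SE 0.04, adjusted p = 0.044), STAT3 rose (0.14, SE 0.03, adjusted p = 0.007) and IFNGR1 rose (0.16, SE 0.05, adjusted p = 0.034). The chrysin calls of IFNGR2 and IFNGR1 were lost in 10 and 8 of 18 alternatives, with adjusted p up to 0.15 and 0.097. The glucose call of IFNAR1 was lost on leaving out low glucose library 1 or 2 (0.058 and 0.084) or high glucose library 1 or 2 (0.058 and 0.077). IFNGR1 was called lower in high glucose without low glucose library 1 (-0.19, adjusted p = 0.017).

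Of 13 tested sensors, adaptors and their factors (15 listed), 4 rose with high glucose, and 6 fell and 2 rose with chrysin, where all genes gave 14.6% for the first and 20.9% and 24.9% for the others. STING1, the adaptor of cytosolic DNA sensing, was at 22.8, 23.9 and 22.5 FPKM under low glucose, 25.9, 26.3 and 24.3 under high glucose and 13.5, 14 and 14.3 with chrysin. It fell with chrysin (-0.85, SE 0.05, adjusted p = 3.7e-07). IFI16, a nuclear DNA sensor, was at 41.1, 39.6 and 44.1 FPKM under low glucose, 39, 38.6 and 41 under high glucose and 25, 24 and 25.2 with chrysin and fell (-0.67, SE 0.05, adjusted p = 1.5e-06). IKBKE, a kinase that activates IRF3, was at 6.59, 6.97 and 7.13 FPKM under low glucose, 8.89, 8.72 and 8.57 under high glucose and 3.04, 3.42 and 3.81 with chrysin. It rose with high glucose (0.32, SE 0.08, adjusted p = 0.018) and fell with chrysin below low glucose (-1.24, SE 0.08, adjusted p = 1.1e-06). IRF3, the factor that starts interferon transcription, was at 78.4, 73.3 and 74.2 FPKM under low glucose, 107, 105 and 105 under high glucose and 70.9, 74.8 and 82.6 with chrysin. It rose with high glucose (0.49, SE 0.05, adjusted p = 9.1e-05) and fell with chrysin to values that overlapped low glucose (-0.48, SE 0.05, adjusted p = 2.5e-05). The other falls were in the receptors TLR4 (-0.47, SE 0.11, adjusted p = 0.006) and TLR3 (-0.68, SE 0.19, adjusted p = 0.014), the latter on few reads and with a difference of -1.26 on recovered reads. RIGI, at 3.48, 3.31 and 3.14 FPKM under low glucose, 4.36, 3.77 and 4.18 under high glucose and 3.39, 3.68 and 3.72 with chrysin, was not called between the glucose levels (0.27, SE 0.09, adjusted p = 0.051), but it was without high glucose library 2 (0.33, adjusted p = 0.047). The rises with chrysin were IRF5 (0.49, SE 0.17, adjusted p = 0.033) and TBK1 (0.15, SE 0.05, adjusted p = 0.04). IRF5 rested on 14 to 33 reads, and its call was not followed through the alternatives. With high glucose MYD88 (0.34, SE 0.07, adjusted p = 0.0063) and MAVS (0.16, SE 0.05, adjusted p = 0.045) rose too. The calls of TBK1 and MAVS were lost in 11 and 12 of 18 alternatives, with adjusted p up to 0.16 for both. IKBKE lost its glucose call without low glucose library 1 (0.066), and TLR3 its chrysin call without high glucose library 2 (0.053). Without high glucose library 3 STING1 was called higher in high glucose (0.17, adjusted p = 0.038), and without high glucose library 2 MYD88 was called lower with chrysin (-0.23, adjusted p = 0.03).

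Of 10 tested brakes on the pathway (12 listed), none rose and 6 fell with chrysin, while 3 rose and 2 fell with high glucose. The shares of all genes were 24.9% and 20.9% with chrysin, and 14.6% and 8.91% with high glucose. SOCS3, an inhibitor of JAK kinases induced by cytokines, was at 23.4, 20.6 and 21.9 FPKM under low glucose, 35.1, 35.6 and 35 under high glucose and 20, 19.5 and 21.8 with chrysin. It rose with high glucose (0.67, SE 0.06, adjusted p = 2.3e-05) and fell with chrysin (-0.78, SE 0.06, adjusted p = 1.7e-06). SOCS1, the main inhibitor of interferon receptors in this family, was at 2.4, 3.05 and 2.66 FPKM under low glucose, 3.18, 3.38 and 3.39 under high glucose and 1.22, 1.55 and 1.96 with chrysin. It was not called between glucose levels (0.26, SE 0.14, adjusted p = 0.22) and fell with chrysin (-0.89, SE 0.14, adjusted p = 0.00042). PTPN2, a phosphatase of JAK1, was at 38.4, 39.1 and 37.4 FPKM under low glucose, 33.1, 34.4 and 36.6 under high glucose and 21.1, 20.8 and 21.6 with chrysin. It fell with chrysin (-0.70, SE 0.04, adjusted p = 7.8e-07). IRF2 (-0.41, SE 0.06, adjusted p = 0.0002), SIAH2 (-0.32, SE 0.06, adjusted p = 0.0011) and NLRC5 (-0.15, SE 0.05, adjusted p = 0.021) were the other falls with chrysin. NLRC5 lost its chrysin call without high glucose library 2 or 3 (0.06 and 0.066) or chrysin library 3 (0.066). With high glucose, DUSP4 (0.26, SE 0.06, adjusted p = 0.011) and NLRC5 (0.14, SE 0.05, adjusted p = 0.043) rose, and SIAH2 (-0.38, SE 0.06, adjusted p = 0.00094) and PTPN2 (-0.14, SE 0.04, adjusted p = 0.039) fell. The glucose calls of NLRC5 and PTPN2 were lost in 12 and 11 of 18 alternatives, with adjusted p up to 0.25 and 0.12. Without high glucose library 3 IRF2 was called higher in high glucose (0.15, adjusted p = 0.039).

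**Figure D5:**
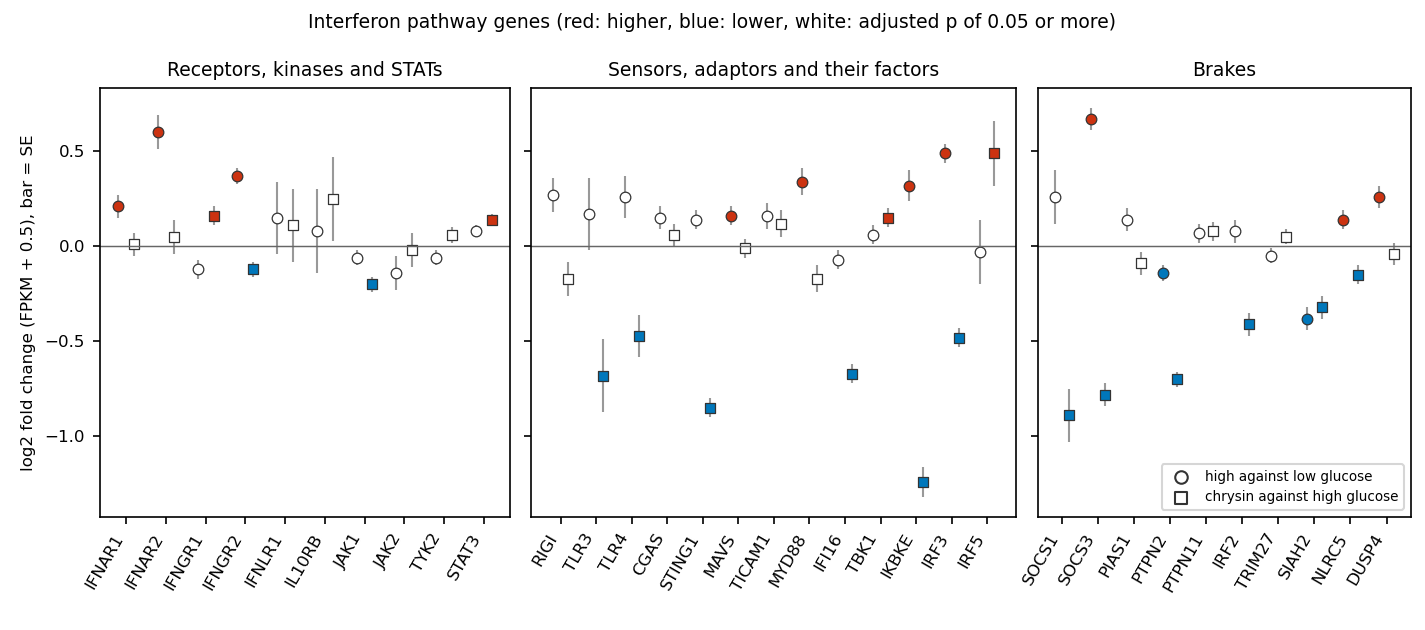
Log2 fold changes (y axis, log2(FPKM + 0.5), bars of 1 SE) of receptor and signalling genes, sensors and adaptors, and brakes, for high against low glucose (circles) and chrysin against high glucose (squares); red rose, blue fell and white had an adjusted p of 0.05 or more. In the panel of brakes 6 squares are blue and none is red.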

How the data were processed

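PolyA RNA of 9 AC16 libraries, 3 for each treatment label, was measured. The submitters' processing notes list HTSeq 0.13.5, StringTie 2.2.1, HISAT2 2.2.1 and fastp 0.23.4, with the build hg38 and without roles; for annotation release and strand use, none is given in the sources used here. Values as deposited were FPKM for 60671 genes, read as that unit from the values. Their steps gave whole reads for 28230 of 28230 genes above 0 in at least 2 libraries (100.0%, within a tolerance of 0.01 reads); 4119 genes above 0 in 1 library were given 1 read. Reads totalled 18171842 to 23024300 per library.

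log2(FPKM + 0.5) was fitted with limma 3.58.1 (R 4.3.3) with a mean-variance trend for the 16996 genes whose mean reached 0.5 FPKM in some group, with the 9 libraries in 1 fit, with 3 two-sided contrasts and Benjamini-Hochberg adjustment over all genes tested (called at under 0.05). limma voom on the recovered reads called 12 members higher and 4 lower for glucose, 5 and 30 for chrysin against high glucose, and 7 and 26 for chrysin against low glucose. The fit was also run on simulated data to check the code, with far fewer changed genes than were called here, and no result rests on it. Other settings were a pseudocount of 0.1 or 1, a filter at a mean of 5 FPKM or none, median-of-ratios scaling, voom, the replicate number as a block, the groups compared alone and leaving out each library. A loess correction for GC content and length (span 0.4; both known for 16393 genes, 96.5%) was added after seeing the data.

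The members and lists were chosen with earlier results of these data known. Members called in any comparison are named with all values, and the others with means or their highest value; from other lists up to 6 called genes with the smallest adjusted p are named. RIGI, IRF5, TBK1, APOL6, GBP2, TDRD7, PNPT1, ISG20L2 and the CXCL genes were named after their values were seen. Gene positions came from GENCODE 29 on hg38 and promoters from RefSeq on GRCh38.p14. No test over the members as a set was made. A listed pathway gene is not reported here.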

Additional observations from a re-analysis of the deposited data

How the results depend on the processing

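No call of a member changed direction under any of 18 alternatives per comparison. The filter at a mean of 5 FPKM kept 34 of the 43 tested members, so the others had 17 alternatives. Sign changes of differences called in neither fit were not counted. Of 35 members called between chrysin and high glucose, 30 were called in every alternative, as were 27 of 30 between chrysin and low glucose and 6 of 14 between the glucose levels. Without the filter 2 members were called lower in high than in low glucose. Leaving out each library in turn gave 5 to 12 members higher and 1 to 4 lower in high glucose, 4 to 5 higher and 27 to 30 lower with chrysin against high glucose, and 6 to 8 higher and 21 to 24 lower against low glucose. Same-numbered libraries did not deviate together (correlations of -0.140 to 0.061). With 3 libraries a group this cannot settle whether the numbers pair the libraries, and the labels do not say. The replicate block gave 10 members higher and 3 lower for glucose, 5 and 30 for chrysin against high glucose, and 7 and 23 against low glucose. The correction for GC content and length gave 11 and 4, 6 and 33, and 7 and 26 in the same order. Depth limits IFI27, OAS1, IRF9 and IFITM1 most among tested members, with as few as 3, 8, 10 and 13 reads in a library.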

Other observations

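Outside the 48 members, 46 other genes known to respond to interferon were listed, of which 36 were tested. This list too was chosen with earlier results of these data known. With chrysin against high glucose, 19 of the 36 fell and 3 rose, while 20.9% of all tested genes fell and 24.9% rose. Their median log2 difference was -0.20, against 0.03 over all genes. The complement proteases C1R and C1S showed the largest falls. C1R was at 41.1, 43.4 and 45.8 FPKM under low glucose, 53, 49.9 and 51.1 under high glucose and 24.9, 22.2 and 23.1 with chrysin, and fell (-1.12, SE 0.05, adjusted p = 1.1e-07). C1S was at 35.4, 41.5 and 40.5 FPKM under low glucose, 37.7, 40.2 and 41.8 under high glucose and 19.5, 21.4 and 20.7 with chrysin, and fell as well (-0.94, SE 0.06, adjusted p = 1.3e-06). In both genes every chrysin value was below every other value. The tested apolipoprotein L genes, which include the trypanosome-lysing APOL1, also fell. APOL1 was at 20.9, 24.9 and 20.8 FPKM under low glucose, 26.8, 29.5 and 28.1 under high glucose and 17.9, 18.5 and 17.9 with chrysin (-0.62, SE 0.07, adjusted p = 3e-05), and APOL6 (-0.92, SE 0.11, adjusted p = 7.2e-05) and APOL2 (-0.47, SE 0.06, adjusted p = 5.9e-05) were lower too. GBP3, a guanylate-binding relative of GBP1, was at 21.5, 22.8 and 20.8 FPKM under low glucose, 25.4, 27.6 and 26.3 under high glucose and 15.6, 15.1 and 16.1 with chrysin, and fell (-0.74, SE 0.05, adjusted p = 1.4e-06) where GBP1 rose. The difference between these GBP genes was not tested. SP100, a nuclear body protein like SP110, was at 49, 50 and 44 FPKM under low glucose, 41.9, 42.3 and 42.6 under high glucose and 26.6, 23.8 and 25.5 with chrysin and fell (-0.73, SE 0.05, adjusted p = 2.1e-06), where SP110 rose. That difference was not tested either. The rises were in TDRD7 (0.40, SE 0.08, adjusted p = 0.0013), PNPT1 (0.29, SE 0.05, adjusted p = 0.00091) and ISG20L2 (0.24, SE 0.04, adjusted p = 0.00054).

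Between the glucose levels 14 of the 36 rose and 4 fell, while 14.6% of all tested genes rose and 8.91% fell. The median difference was 0.09, against 0.02 over all genes. WARS1, the tryptophanyl-tRNA synthetase, was at 268, 274 and 279.6 FPKM under low glucose, 195, 195 and 195 under high glucose and 155, 154 and 157 with chrysin. It fell in high glucose (-0.49, SE 0.02, adjusted p = 4.9e-07) and again with chrysin (-0.33, SE 0.02, adjusted p = 2.1e-06), with 3 groups that did not overlap. APOL2 was at 36.1, 42.9 and 38.8 FPKM under low glucose, 62, 61.8 and 61 under high glucose and 42.4, 45.7 and 44.8 with chrysin and rose in high glucose (0.65, SE 0.06, adjusted p = 2.9e-05). ZC3HAV1, the zinc finger protein that degrades viral RNA, was at 12, 13.4 and 12.3 FPKM under low glucose, 16.7, 18.5 and 18.1 under high glucose and 18.8, 18.9 and 19 with chrysin and rose (0.48, SE 0.06, adjusted p = 0.00019). HELZ2 (0.47, SE 0.04, adjusted p = 5.2e-05), CNP (0.34, SE 0.03, adjusted p = 5.5e-05) and OGFR (0.39, SE 0.04, adjusted p = 9.8e-05) rose too. The interferon-induced chemokines CXCL9, CXCL10 and CXCL11 were under 0.5 FPKM in every library, with highest values of 0, 0.0437 and 0.137 FPKM.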
